A study of Homo sapiens with 3 samples.

Results

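The transcripts described here come from 8 human genes that carry small nucleolar RNAs (snoRNAs) in their introns, namely GAS5, SNHG1, SNHG5, SNHG8, SNHG12, SNHG15, SNHG16 and ZFAS1. They were measured in T47D cells, an established human breast cancer line with estrogen receptor α, on 3 Affymetrix HG-U133 Plus 2 arrays with 1 array per group. After 4 h in medium with 10% charcoal-stripped serum, the cells received 1 µM estradiol, 1 µM ERα17p (a synthetic peptide copied from the calmodulin-binding stretch of the receptor) or ethanol vehicle at 0.1% for 3 h before RNA extraction. The labels give an ethanol content for the vehicle cells only, and the solvent of the treated cells was not checked. Members were the probe sets other than controls that the platform annotation gives to exactly 1 of the 8 symbols. This left 5 of 54613 probe sets, 1 for GAS5 and 4 for ZFAS1, and the other 6 genes had none.

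The reason was visible in the annotation itself. Another 13 probe sets listed one of the 8 genes together with 1 to 8 snoRNAs, and every one of those snoRNAs lay within the span of the listed host gene in RefSeq (GRCh38.p14). These 13 are called locus probe sets below and are kept apart from the 5 members, because the annotation does not say which of the overlapping genes a probe set reads. They were 4 at the GAS5 locus, 3 at SNHG12, 2 at SNHG16 and 1 each at SNHG1, SNHG5, SNHG8 and SNHG15. Their inclusion was decided after the annotation and values had been seen.

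A snoRNA host gene makes a spliced RNA whose exons usually encode no protein, while the introns that are cut out are trimmed into snoRNAs. Box C/D snoRNAs guide 2′-O-methylation and box H/ACA snoRNAs guide pseudouridylation of ribosomal RNA, so the hosts supply parts of the machinery that builds ribosomes. Many host transcripts begin with a pyrimidine tract like that of ribosomal protein mRNAs, which places their translation under mTORC1. Because their short open reading frames end early, several of the spliced RNAs are degraded by nonsense-mediated decay when ribosomes read them. GAS5 was named for its accumulation in growth-arrested cells, in which its translation and hence its decay slow down.

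The loci differ in how many snoRNAs they carry. GAS5 lies on chromosome 1 at 173863901 to 173869045 and spans 11 RefSeq snoRNAs, among them SNORD44 and SNORD47. SNHG1, on chromosome 11 at 62851978 to 62855885, spans 9, among them SNORD25 to SNORD31. SNHG12, on chromosome 1 at 28578538 to 28582983, spans 4, and SNHG16, on chromosome 17 at 76557764 to 76565348, spans 3. ZFAS1, on chromosome 20 at 49278178 to 49289260, also spans 3, all of the SNORD12 family. SNHG5, the host of SNORD50A and SNORD50B, spans 2 and lies on chromosome 6 at 85677007 to 85678733. SNHG8, on chromosome 4 at 118278762 to 118279823, and SNHG15, on chromosome 7 at 44983023 to 44986696, each span 1, SNORA24 and SNORA9. All 8 are annotated as lncRNA genes.

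Most of the hosts had a pyrimidine run near their annotated start. RefSeq promoter sequences (GRCh38.p14) were found for 7 of the 8 genes, and 6 of these 7 had a run of at least 5 pyrimidines that began within 5 bases of the annotated start. The same held for 63 of 78 cytosolic ribosomal protein genes and for 10527 of all 35116 promoters. A stricter pattern, C at the start followed by 4 pyrimidines, was present at SNHG5, SNHG12 and ZFAS1, at 47 of 78 ribosomal protein genes and at 4.07% of all promoters. The start used for SNHG12 (28581873) and for ZFAS1 (49278642) lay inside the gene span given above, and for the others at its 5′ end. The sequences below run 5′ to 3′, with 30 bases before and 30 from the start. They show SNHG12, SNHG1, ZFAS1 and SNHG5, where the run began 1 or 2 bases before the start. Also shown is GAS5, which lacked such a run at the start RefSeq gives. Not shown are SNHG8, whose run began 5 bases before the start, and SNHG16, whose run began at base 4 from it. A relation between these sequences and the array differences was not tested. Capitals mark the pyrimidine run.
SNHG12, chr1:28581844-28581903, minus strand: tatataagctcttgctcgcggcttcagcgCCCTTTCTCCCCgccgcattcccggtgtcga
SNHG1, chr11:62855856-62855915, minus strand: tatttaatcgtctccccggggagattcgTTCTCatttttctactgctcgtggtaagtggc
ZFAS1, chr20:49278612-49278671, plus strand: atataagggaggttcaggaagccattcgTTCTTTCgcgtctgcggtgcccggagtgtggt
SNHG5, chr6:85678704-85678763, minus strand: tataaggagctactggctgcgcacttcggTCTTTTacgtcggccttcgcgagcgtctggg
GAS5, chr1:173869016-173869075, minus strand: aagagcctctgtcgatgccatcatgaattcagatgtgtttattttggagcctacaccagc

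The run was 12 bases long at SNHG12, 7 at ZFAS1, 6 at SNHG5 and 5 at SNHG1. Both strands of the 300 bases around the start (250 before and 50 from it) were searched for the E-box CACGTG, the cAMP response element TGACGTCA, the ATF4 composite element TGATGCAA and the full palindromic estrogen response element. None of the 7 host promoters held any of these motifs. Over all promoters, 7.26% held the E-box, 1.85% the cAMP response element, 0.866% the ATF4 element and 0.0570% the estrogen response element.

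The deposited values lie around 0 on each array, relative to a baseline per probe set that the sources used here do not give. They carry no absolute level, and only differences between arrays can be read. Levels could not be compared between genes for the same reason, and the luminal markers of T47D could not be checked for presence. All values were read as log2 values, and a difference counts as past 1.5-fold when its size is at least 0.585. With 1 array per group there is no spread between cultures and no test was made. An SD below is over probe sets, either of 1 gene or locus, of a kind of control or of a whole array. Probe sets of 1 gene share the RNA and the array, and no SD here measures spread between cultures. Both differences from the vehicle use the same vehicle array.

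That vehicle array stood apart. Across the 54613 probe sets the SD was 0.158 for estradiol and 0.166 for ERα17p, against 0.434 for vehicle. The 3′ less 5′ control signal of ACTB was −0.29 with estradiol and −0.17 with ERα17p, against 0.52 with vehicle, and that of GAPDH was −0.098 and 0.0071, against 0.39. Control sets for 18S ribosomal RNA were higher than on the vehicle array by 1.87 ± 0.34 with estradiol and 1.76 ± 0.39 with ERα17p (SD, n = 3 probe sets), while between the treated arrays they differed by −0.12 ± 0.11. The poly-A spikes, added before labelling, were higher than on the vehicle array by 0.70 ± 0.29 with estradiol and 0.45 ± 0.29 with ERα17p (SD, n = 24 probe sets). These properties move with every difference from the vehicle below, and their part in the results was not tested.

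Host probe sets as a group were highest on the vehicle array and lowest on the ERα17p array. Of the 18 member and locus probe sets, 15 had their highest value on the vehicle array and 14 their lowest on the ERα17p array. In 11 of 18 the order was ERα17p, estradiol, vehicle from low to high. Over all probe sets other than controls the corresponding shares were 38.9%, 30.4% and 19.9%. Several probe sets share a locus, so the 18 are not 18 separate observations.

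**Figure D1:**
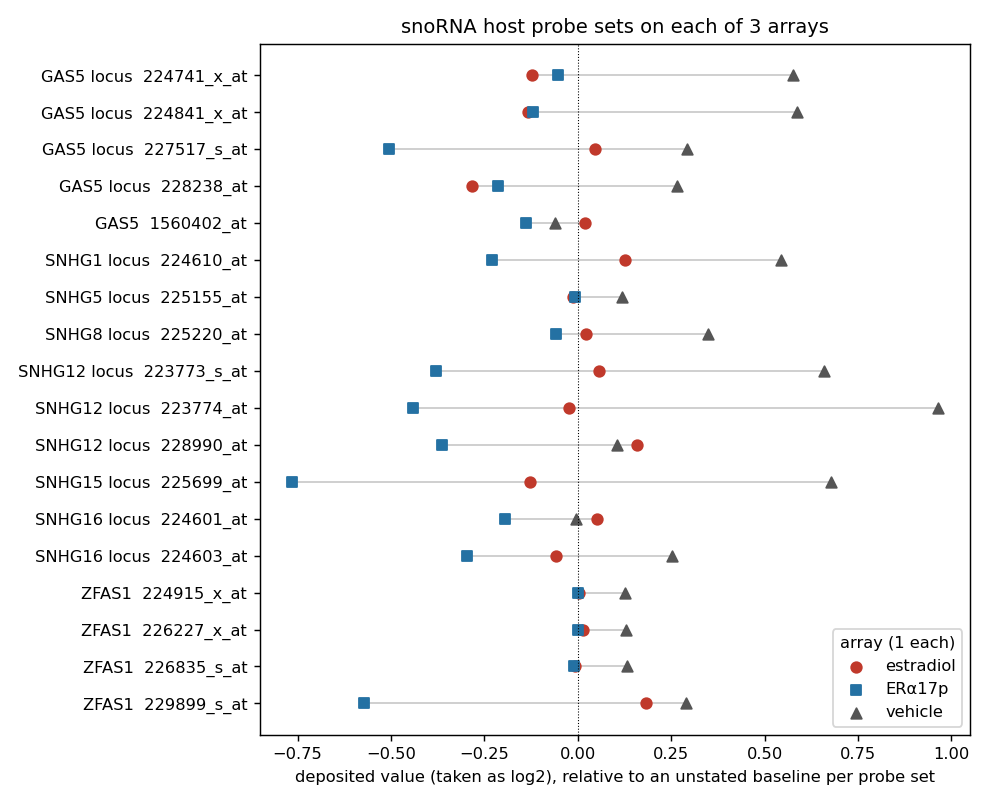
Deposited value (x axis, taken as log2, relative to an unstated baseline) of each of the 18 host probe sets (rows) on the estradiol array (circles), the ERα17p array (squares) and the vehicle array (triangles), 1 array each. The vehicle triangle lies farthest right in 15 rows and the ERα17p square farthest left in 14.

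GAS5, whose spliced RNA can act as a decoy for the glucocorticoid receptor, gave different readings from different probe sets. Its single-symbol probe set 1560402_at stood at 0.018 with estradiol and −0.14 with ERα17p, against −0.061 with vehicle. The differences from the vehicle were 0.079 and −0.077, and 81.3% and 80.7% of all probe sets differed by as much or more. For ERα17p minus estradiol the difference was −0.16, and 45.5% of all probe sets differed by as much or more. None of the 3 differences was past 1.5-fold.

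The 4 locus probe sets at GAS5 were all lower on the treated arrays. Probe set 224841_x_at stood at −0.13 with estradiol and −0.12 with ERα17p, against 0.59 with vehicle, and 224741_x_at at −0.12 and −0.053, against 0.58. Probe set 228238_at had −0.28 and −0.21, against 0.27. The fourth, 227517_s_at, had 0.046 with estradiol and −0.50 with ERα17p, against 0.29 with vehicle. In the first 3 the treated arrays lay close together, while in the fourth the estradiol value lay nearer to the vehicle. The mean difference from the vehicle over these 4 sets was −0.55 ± 0.22 for estradiol and −0.65 ± 0.13 for ERα17p (SD, n = 4 probe sets). With the single-symbol set included it was −0.43 ± 0.34 and −0.54 ± 0.28 (SD, n = 5 probe sets).

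ZFAS1, also named ZNFX1-AS1 in RefSeq, had 4 single-symbol probe sets, of which 3 read nearly the same. On these 3, values lay between −0.0063 and 0.013 with estradiol and between −0.011 and 0.0013 with ERα17p, against 0.125 to 0.131 with vehicle. The differences from the vehicle lay between −0.14 and −0.12 for either agent. The remaining one, 229899_s_at, stood at 0.18 with estradiol and −0.57 with ERα17p, against 0.29 with vehicle.

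The ZFAS1 probe set 229899_s_at was 1.82-fold lower with ERα17p than with vehicle, at −0.86, and 1.69-fold lower with ERα17p than with estradiol, at −0.75. It was the sole member past 1.5-fold in either comparison, and 0.450% of all probe sets had an ERα17p minus estradiol difference as low. The gene mean of ZFAS1 was −0.12 ± 0.013 for estradiol minus vehicle, −0.31 ± 0.36 for ERα17p minus vehicle and −0.19 ± 0.37 for ERα17p minus estradiol (SD, n = 4 probe sets). Without 229899_s_at, a set left out after its values were seen, the means were −0.13, −0.13 and −0.0062. Across all 10523 genes with more than 1 probe set, the median SD over probe sets was 0.29, 0.28 and 0.16 in these comparisons, so the ZFAS1 sets spread more widely than those of the median gene in both comparisons of ERα17p. All 4 ZFAS1 sets have identifiers ending in _x_at or _s_at, which mark probes that may bind other transcripts or several transcripts.

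Of the 5 member probe sets, 0 were past 1.5-fold higher or lower with estradiol, where 9.07% and 9.78% of all probe sets were. With ERα17p against vehicle 0 were higher and 1 was lower, against 8.92% and 10.2% of all probe sets. For ERα17p against estradiol 0 were higher and 1 was lower, against 0.809% and 1.27%. As gene means, neither GAS5 nor ZFAS1 was past 1.5-fold in any of the 3 comparisons, where between 0.521% and 8.76% of the 19775 genes were in a given direction.

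The largest differences were at the SNHG15 and SNHG12 loci. SNHG15 makes a short-lived RNA, and its locus probe set 225699_at stood at −0.13 with estradiol and −0.76 with ERα17p, against 0.68 with vehicle. It was 1.75-fold lower with estradiol, at −0.81, and 2.72-fold lower with ERα17p, at −1.44, where 0.740% of all probe sets were as low. The ERα17p value also lay 0.64 below the estradiol value. The 3 arrays were thus well apart from each other at this locus, each by more than 1.5-fold.

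SNHG12 carries mostly box H/ACA snoRNAs, and its 3 locus probe sets agreed on the ERα17p to estradiol difference more closely than on the differences from the vehicle. Probe set 223774_at stood at −0.023 with estradiol and −0.44 with ERα17p, against 0.96 with vehicle. Probe set 223773_s_at stood at 0.057 and −0.38, against 0.66. Probe set 228990_at stood at 0.16 and −0.36, against 0.10, so here estradiol and vehicle lay close together. The mean difference over the 3 sets was −0.51 ± 0.53 for estradiol minus vehicle and −0.97 ± 0.47 for ERα17p minus vehicle (SD, n = 3 probe sets). For ERα17p minus estradiol it was −0.46 ± 0.055, with all 3 sets between −0.52 and −0.42. Closer agreement in that comparison was general. Across all 10523 genes with more than 1 probe set the median SD was 0.16 there, against 0.29 and 0.28 for the differences from the vehicle.

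At the SNHG1 locus, which supplies a cluster of box C/D snoRNAs, probe set 224610_at stood at 0.13 with estradiol and −0.23 with ERα17p, against 0.54 with vehicle. The differences from the vehicle were −0.42 and −0.78, and ERα17p lay 0.36 below estradiol. SNHG16, the host of the SNORD1 family, had smaller differences. Its locus probe set 224603_at stood at −0.059 with estradiol and −0.30 with ERα17p, against 0.25 with vehicle, and 224601_at at 0.051 and −0.20, against −0.0049. The 2 sets disagreed in direction for estradiol, at −0.31 and 0.056, but lay close together for ERα17p minus estradiol, with a mean of −0.24 ± 0.0068 (SD, n = 2 probe sets).

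At the SNHG8 and SNHG5 loci the treated arrays lay close together. The SNHG8 probe set 225220_at stood at 0.022 with estradiol and −0.058 with ERα17p, against 0.35 with vehicle, which gave −0.33 and −0.41 relative to the vehicle. The SNHG5 probe set 225155_at stood at −0.013 and −0.0067, against 0.12. Its differences from the vehicle, −0.13 and −0.12, were like those of the 3 agreeing ZFAS1 sets.

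**Figure D2:**
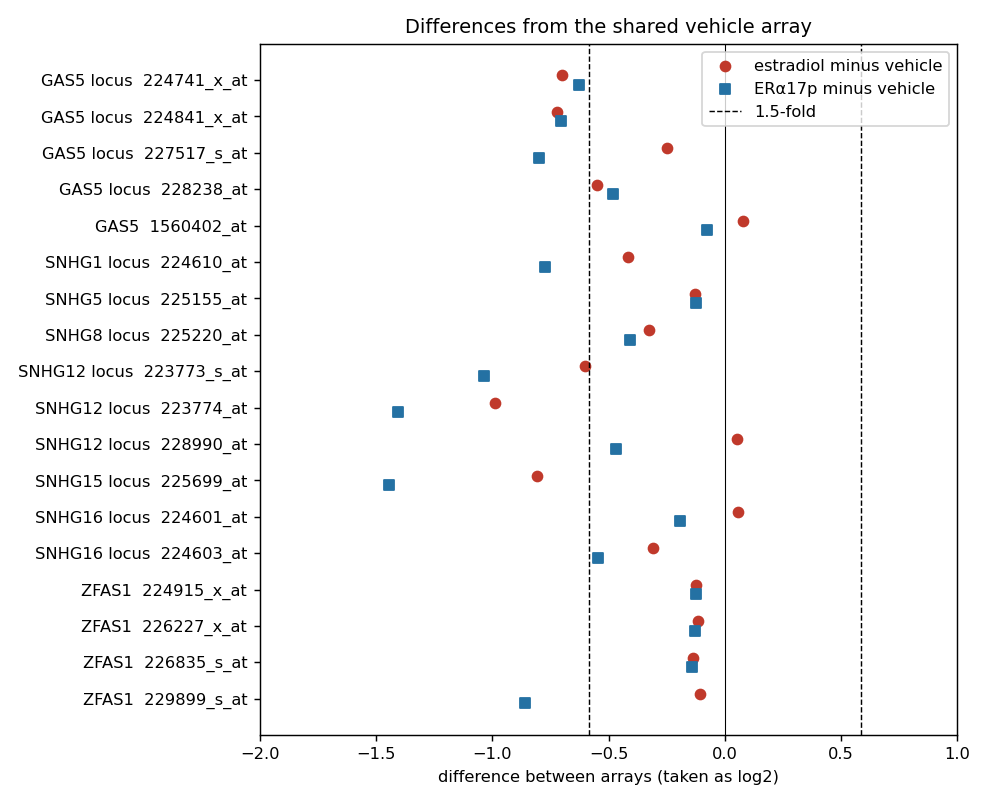
Difference from the shared vehicle array (x axis, taken as log2) for each host probe set (rows), with estradiol minus vehicle as circles and ERα17p minus vehicle as squares; dashed lines mark 1.5-fold. All 18 squares and 15 of 18 circles lie left of 0, and no point lies right of the upper dashed line.

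Of the 13 locus probe sets, 5 were past 1.5-fold lower with estradiol and 0 higher, beside 9.78% and 9.07% of all probe sets. With ERα17p 7 were lower and 0 higher, beside 10.2% and 8.92%. Their median difference was −0.42 for estradiol and −0.63 for ERα17p, while the medians over all probe sets were 0.0043 and 0.0046. At 2-fold, 3 of 13 were lower with ERα17p, all at SNHG12 or SNHG15, and 0 with estradiol, beside 3.05% and 2.47% of all probe sets. Without the sets ending in _x_at or _s_at, 2 of 9 were past 1.5-fold lower with estradiol and 3 of 9 with ERα17p. No share of all probe sets with those endings left out is given here, so these 2 counts cannot be set against one.

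The ERα17p and estradiol arrays can be compared without the vehicle array. In this comparison 9 of 13 locus probe sets lay below 0, with a median of −0.25 and a range from −0.64 to 0.070, and over all probe sets the median was −0.0012. Only the SNHG15 set was past 1.5-fold, at −0.64, beside 1.27% of all probe sets lower by that much. The 4 locus sets above 0 were 3 at GAS5 and the SNHG5 set, none by more than 0.070. The other GAS5 locus set, 227517_s_at, lay at −0.55, where 1.62% of all probe sets were as low. In this comparison the poly-A spikes differed by −0.24 ± 0.25 (SD, n = 24 probe sets) and the hybridisation spikes by −0.022 ± 0.20 (SD, n = 18 probe sets); the part of labelling in the result was not tested.

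**Figure D3:**
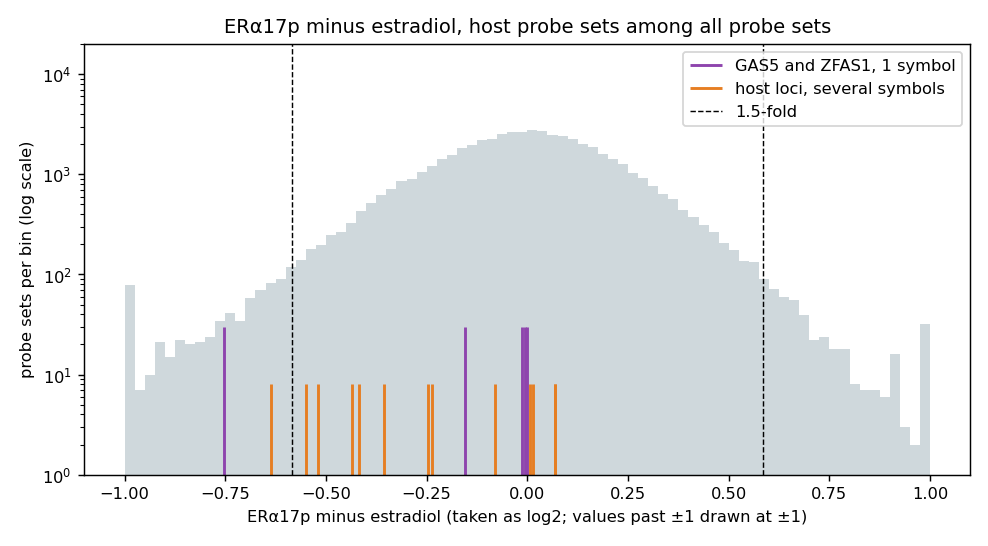
Distribution of ERα17p minus estradiol (x axis, taken as log2) over all 54613 probe sets (grey, log count axis), with vertical ticks for the 5 single-symbol GAS5 and ZFAS1 sets (purple) and the 13 locus sets (orange); tick height carries no value and dashed lines mark 1.5-fold. The ZFAS1 set at −0.75 and the SNHG15 locus set at −0.64 are the 2 ticks beyond the lower line, and the highest tick is at 0.070.

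Other noncoding snoRNA hosts gave a mixed picture. Of 26 listed genes 12 had a single-symbol probe set, with a median of −0.14 for estradiol and −0.14 for ERα17p relative to the vehicle, where the medians over all genes were −0.0043 and 0.0011. With estradiol 1 was past 1.5-fold lower and 1 higher, beside 8.42% and 6.48% of all genes, and with ERα17p 3 were lower and 0 higher, beside 8.76% and 6.88%. SNHG17 was the lowest in both, at −1.07 ± 0.021 for estradiol and −1.57 ± 0.0091 for ERα17p (SD, n = 2 probe sets). Its set 225857_s_at stood at −0.014 with estradiol and −0.52 with ERα17p, against 1.04 with vehicle, the same order as at SNHG15. The SNHG17 locus probe set 1568249_at went another way, at −0.082 for estradiol and 0.40 for ERα17p relative to the vehicle and 0.49 for ERα17p minus estradiol. EPB41L4A-AS1, the host of SNORA13, was lower with ERα17p, at −0.84 ± 0.048 (SD, n = 2 probe sets), and so was SNHG19, at −0.62. SNHG4 was higher with estradiol, at 0.70 (1 probe set).

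Between ERα17p and estradiol, 10 of these 12 genes lay below 0 and 0 were past 1.5-fold, with a median of −0.14. In this comparison 48.4% of all genes lay below 0, with 0.521% past 1.5-fold higher and 0.607% lower. Of all probe sets 50.2% lay below 0, with 0.809% past 1.5-fold higher and 1.27% lower. Counts of 0 or 1 in the groups here are near those shares. Locus probe sets of other lncRNA hosts, 11 sets at 8 genes, had 5 of 11 below 0 and a median of 0.096, with 0 past 1.5-fold. Relative to the vehicle, 9 of these 11 lay below 0 for estradiol, with a median of −0.35, and 3 were past 1.5-fold lower and 0 higher. For ERα17p minus vehicle 8 of 11 lay below 0, with a median of −0.062, and 4 were lower and 0 higher. Of all probe sets, 9.78% were lower and 9.07% higher with estradiol, and 10.2% lower and 8.92% higher with ERα17p. The 67 locus probe sets of 25 protein-coding hosts had a median of 0.0035 for ERα17p minus estradiol, with 32 below 0, 1 past 1.5-fold lower and 0 higher. Relative to the vehicle, 2 of 67 were past 1.5-fold lower with estradiol and 8 with ERα17p, and 1 was higher in each. No test of a difference between these groups was made.

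Protein-coding snoRNA hosts outside the ribosomal proteins were measured for 20 of 28 genes, with medians of −0.082 for estradiol and −0.044 for ERα17p. With estradiol 2 of 20 (10%) were past 1.5-fold lower and 0 higher, a share near the 8.42% of all genes lower. These were CHD8, a chromatin remodeller, at −1.14 and CCNB1IP1 at −0.59. With ERα17p the same 2 were lower, at −1.12 and −0.62, beside 8.76% of all genes. EIF4A2, an RNA helicase of translation initiation, was higher with ERα17p, at 0.72, beside 6.88% of all genes higher. Among 16 of 18 snoRNP proteins and assembly factors, the medians were −0.16 and −0.29, with 1 and 2 past 1.5-fold lower (6.25% and 12.5%, beside 8.42% and 8.76% of all genes). PIH1D1, a subunit of the R2TP assembly complex, was lower with both agents, at −1.01 with estradiol and −0.95 with ERα17p, and FBL, the methyltransferase of box C/D snoRNPs, stood at −0.62 with ERα17p. No gene of this list was past 1.5-fold higher.

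Cytosolic ribosomal protein genes, 53 of 79 measured, had medians of −0.11 for estradiol and −0.12 for ERα17p, with 0 and 1 past 1.5-fold lower and 1 higher in each. The shares of all genes were 8.42% lower and 6.48% higher with estradiol, and 8.76% and 6.88% with ERα17p. The gene higher in each was RPS23, at 0.78 ± 1.05 and 0.63 ± 0.90 (SD, n = 2 probe sets), and RPL36A was lower with ERα17p, at −0.62. Of the other mRNAs listed as carrying a 5′ terminal pyrimidine tract, which was not checked here, 12 of 15 were measured, with medians of −0.040 and 0.062, the second turning to −0.15 without the probe sets ending in _x_at or _s_at. The mean for ERα17p also had the other sign, at −0.046. HNRNPA1, a splicing regulator, was the sole one past 1.5-fold, lower at −0.68 ± 0.25 with estradiol and −0.88 ± 0.090 with ERα17p (SD, n = 3 probe sets).

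Factors of nonsense-mediated decay, 6 of 10 measured, had medians of −0.27 for estradiol and −0.39 for ERα17p, the first turning to 0.014 and the second to −0.087 over the 4 genes left without the probe sets ending in _x_at or _s_at. SMG5, which recruits decay enzymes to UPF1 and is itself a target of the pathway, was past 1.5-fold lower with each, at −0.90 ± 0.0016 and −0.79 ± 0.11 (SD, n = 2 probe sets). Known targets of the pathway outside the hosts, 12 of 12 measured, had medians of −0.73 and −0.68, with 7 and 6 past 1.5-fold lower and 0 higher, beside 8.42% and 8.76% of all genes lower. Several of these targets are also genes of the amino acid stress response, and SMG5 and UPF2 count in both lists. TRIB3, a pseudokinase of that response, stood at −1.31 ± 0.68 and −1.27 ± 0.57 (SD, n = 2 probe sets), and DDIT3 at −2.92 and −3.00. Between ERα17p and estradiol the median of these targets was −0.028 with 0 past 1.5-fold. Of all genes 0.521% were higher and 0.607% lower by that much in this comparison, so 0 of 12 is near the share.

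Regulators of mTORC1 and MYC, 12 of 13 measured, had medians of −0.18 for estradiol and −0.24 for ERα17p, with 4 and 5 past 1.5-fold lower, beside 8.42% and 8.76% of all genes, and 1 and 0 higher, beside 6.48% and 6.88%. The lowest were SESN2, a leucine-sensing inhibitor of mTORC1, at −2.37 ± 0.46 and −2.32 ± 0.23 (SD, n = 2 probe sets), then DDIT4 at −2.18 and −1.44 and EIF4EBP1, a translation repressor under mTORC1, at −0.90 and −1.20. MYC itself was higher with estradiol, at 2.07, and stood at −1.70 for ERα17p minus estradiol, and DDIT4, an mTORC1 inhibitor, lay 0.74 higher in that comparison. These were the 2 genes of all 8 lists past 1.5-fold between the treated arrays, of 139 measured, beside 0.521% of all genes higher and 0.607% lower.

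**Figure D4:**
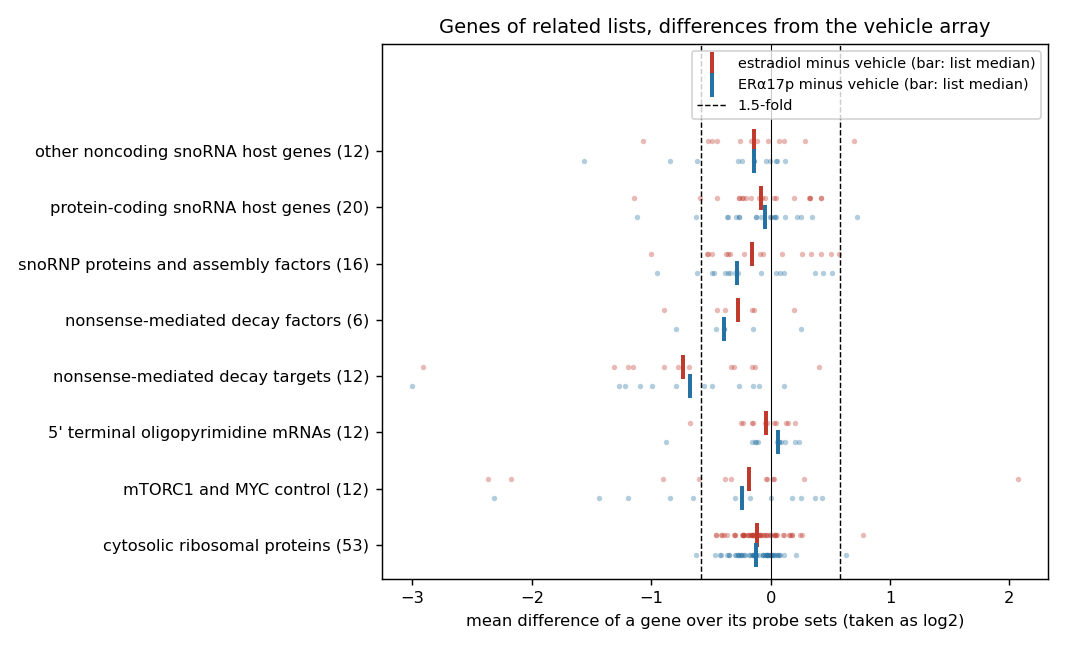
Mean difference of each gene over its probe sets (x axis, taken as log2) for the 8 related lists (rows, number of measured genes in brackets), with estradiol minus vehicle in red above ERα17p minus vehicle in blue; small points are genes, vertical bars list medians and dashed lines 1.5-fold. The nonsense-mediated decay targets have medians of −0.73 and −0.68, and the ribosomal protein genes −0.11 and −0.12.

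Among the 7 hosts in the RefSeq promoter table, which holds 1 start per gene and did not include SNHG15, a gene on the opposite strand starting within 5 kb was found for GAS5 and SNHG1. For ZFAS1, also named ZNFX1-AS1, none was found, and a neighbour whose start is not among those held would be missed. SLC3A2, the heavy chain of amino acid transporters, starts 224 bases from SNHG1 on the opposite strand. Its probe set stood at 0.021 with estradiol and −0.29 with ERα17p, against 1.74 with vehicle, differences from the vehicle of −1.72 and −2.03. The SNHG1 locus set had the same order of arrays with differences of −0.42 and −0.78. ERα17p minus estradiol was −0.31 for SLC3A2 and −0.36 for the SNHG1 locus. ZBTB37, a zinc finger gene that starts 665 bases from GAS5, had means near 0, at −0.057 ± 0.80 and −0.045 ± 0.64 (SD, n = 3 probe sets), over sets that disagreed in direction.

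The gene mean most like that of ZFAS1, by Euclidean distance between the pairs of differences from the vehicle, was CUX1 at a distance of 0.0095. It was followed by ZNF10 at 0.013 and PAQR9 at 0.016. The ZFAS1 mean for ERα17p minus vehicle, −0.31, was the value of none of its probe sets. Set 229899_s_at stood at −0.86 and the others between −0.14 and −0.12. With only 3 arrays the pattern holds little information, and 283 of 10522 other genes with more than 1 probe set lay within 0.1 of ZFAS1.

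Of the luminal markers, 9 of 9 were measured. Their median difference from the vehicle was 0.10 for estradiol and 0.19 for ERα17p, with 2 past 1.5-fold higher and 0 lower in each. Of all genes, 6.48% were higher and 8.42% lower with estradiol, and 6.88% and 8.76% with ERα17p. PGR, the progesterone receptor, stood at 1.44 ± 0.28 and 0.89 ± 0.041, and CDH1, which encodes E-cadherin, at 0.68 ± 0.72 and 0.60 ± 0.38 (SD, n = 2 probe sets). Basal, stromal and blood markers, 10 of 11 measured, had medians of 0.0031 and 0.10, with 1 past 1.5-fold lower with estradiol, COL1A1 at −0.63 ± 0.66 (SD, n = 5 probe sets), and 0 otherwise.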

How the data were processed

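Biotin-labelled RNA was hybridised to Affymetrix arrays, per the labels' protocols, with 1 array each for estradiol, ERα17p and vehicle. The authors processed the arrays with RMA before deposit, per the submitters' processing notes, and the deposited values were read as log2 because that is the scale RMA gives. No source used here states the log base, the centring step or its baseline. Differences between arrays assume 1 baseline per probe set for all 3 arrays. Probe sets were named from the platform annotation, with 62 control sets left out. A gene was the mean of its single-symbol probe sets, for 41091 sets and 19775 genes, and 1801 sets with several symbols entered no gene. Probe sets listing a host with snoRNAs inside its RefSeq span were described separately. Python 3.11.15, numpy 2.4.6, pandas 2.3.3 and matplotlib 3.10.9 were used, and the counting was tested on simulated data. With so few arrays the precision is limited and no significance test was possible.

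All members, and of each of 8 related lists and 2 marker lists up to 3 genes each way past 1.5-fold, could be named. The members and lists were chosen with earlier results of these data known. Alternatives were thresholds of 2-fold and, as a lower one, 1.25-fold, centred differences, other gene summaries, list means and probe sets open to cross-hybridisation (_x_at, _s_at) left out.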

Additional observations from a re-analysis of the deposited data

How the results depend on the processing

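No paired analysis was possible because each group has 1 array, and no array could be left out. Centring the differences on their median or a median in place of the mean for each gene left all 24 and all 12 counts within 1.5 times of those reported. At 2-fold, the counts of members past the threshold became 0 in every comparison, those of locus sets lower became 0 for estradiol minus vehicle, 3 for ERα17p minus vehicle and 0 for ERα17p minus estradiol. At the lower threshold the locus sets lower numbered 8, 11 and 6 of 13, beside 20.4%, 20% and 8.19% of all probe sets. Of the 139 genes in the 8 lists, 3 were past 1.5-fold higher and 16 lower with estradiol, and 2 and 20 with ERα17p. These counts stood beside 6.48% and 8.42%, and 6.88% and 8.76%, of all genes. They became 1 and 9, and 0 and 9, at 2-fold, beside 1.57% and 1.63%, and 1.9% and 1.87%, of all genes. They became 12 and 37, and 8 and 38, at the lower threshold, beside 16.4% and 19.8%, and 16.6% and 19.2%. With the probe set of largest absolute difference per gene, an upper limit, they became 14 and 31, and 9 and 34. No share of all genes under that summary is given here, so these and later counts with it cannot be set against one. ERα17p minus estradiol had 1 list gene higher and 1 lower, which became 0 higher at 2-fold (beside 0.0607% of all genes), 2 and 6 at the lower threshold (beside 4.67% and 4.01%) and 6 lower with the largest probe set. With that probe set, ZFAS1 counted as 1 gene lower in both comparisons of ERα17p. Without the sets ending in _x_at or _s_at, 1 member probe set was left (GAS5) with 0 past 1.5-fold, the locus sets lower numbered 2 with estradiol and 3 with ERα17p, and list genes between the treated arrays numbered 0 higher and 2 lower. Shares of all probe sets or genes with those sets left out are not given here. Centring turned the sign of no host probe set past 1.5-fold, and it moved these values too little to do so. Single list genes past 1.5-fold were not followed across the settings. Some list medians near 0 changed sign, such as the decay factors with estradiol, at 0.014 without the sets ending in _x_at or _s_at. Signal over background is unknown.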

Other observations

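There were 20 probe sets annotated to a single snoRNA or small Cajal body RNA, for 16 genes, and 0 were past 1.5-fold in any of the 3 comparisons. Of all probe sets, 9.07% were higher and 9.78% lower with estradiol, 8.92% and 10.2% with ERα17p, and 0.809% and 1.27% for ERα17p minus estradiol. The snoRNA sets ranged from −0.46 to 0.43 for estradiol minus vehicle, against −0.14 to 0.079 for the 5 GAS5 and ZFAS1 sets and −0.99 to 0.056 for the 13 locus sets. Their median was 0.079 for estradiol minus vehicle and 0.037 for ERα17p minus vehicle, with 5 and 8 of 20 below 0, and the lowest was SNORA17B, a guide of pseudouridylation, at −0.46 and −0.49. Mature snoRNAs have no poly(A) tail, and whether these sets read them or a host intron was not tested. DLEU2, a host whose 7 single-symbol sets were looked at after their values were seen, had sets of opposite direction. Its set 1556820_a_at stood at −0.078 with estradiol and −0.088 with ERα17p, against 1.31 with vehicle, and 216870_x_at at 0.035 and 0.14, against −1.02.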
